A study of Caenorhabditis elegans with 3 samples.

Results

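Cys-loop ligand-gated ion channels are pentameric receptors of the cell surface that open an ion pore when a neurotransmitter binds. The nematode Caenorhabditis elegans uses them for fast transmission in nerve and muscle. Its family holds cation channels gated by acetylcholine, chloride channels gated by GABA, glutamate or acetylcholine, and channels gated by amines such as serotonin, dopamine and tyramine. Several are targets of anthelmintic drugs, among them levamisole, ivermectin and monepantel. The members were all genes with the family names acr, lgc, avr or glc and a number, together with unc-29, unc-38, unc-63, unc-49, lev-1, lev-8, eat-2, exp-1, mod-1, deg-3 and des-2, where an array probe was assigned to that gene alone. By this rule 77 probes of 75 genes were found among the 15168 genes named by the array's 1-gene probes. Values on all arrays were present for 74 of the 75. The last, lgc-18, was at 0.13 and -0.56 in preps 1 and 2 with no value in prep 3, and was not tested. A further 19 genes of the 94 whose RefSeq symbol fits the rule were not analysed here, among them unc-63, mod-1, lgc-35 and lgc-46.

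RNA of whole late third-stage (late L3) hermaphrodites was hybridised on 2-colour arrays, 1 array for each of 3 preparations (preps 1, 2 and 3). The other channel of every array held RNA of a wild-type mixed reference, and no source used here gives the stages or sexes in it. No further allele, treatment or age is named in the labels. They also hold a code, the same for all 3 preps, that they do not explain. The labels do not say whether the preps were separate cultures. The p-values therefore speak only of the variation among these 3 samples, part of which may be technical. Values are log2 ratios of the 2 channels, with each array centred on its median, and 1 log2 unit is 2-fold. Late L3 over reference is the likely direction throughout, because the descriptions name the larvae first. The dyes and the numerator are not given. In whole animals, fewer cells of a type and less RNA per cell cannot be told apart. Each array gave values for 19855 to 19909 probes. The number of arrays limits the precision, and the probes may limit it too, since only 2 members have 2 probes.

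As a check of stage, 12 of 14 oocyte and eggshell genes and 10 of 13 sperm genes were lower in the larvae, and 0 of either were higher (limma, adjusted p under 0.05 over all genes). The medians of these 2 lists were -2.66 and -1.61. Values of all probes were less spread in prep 3, where the median absolute deviation times the usual normal factor was 0.39, against 0.69 in prep 1 and 0.77 in prep 2.

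The comparison asks which of these channel genes stood above or below the mixed reference in late L3. Most stood near the array median. Of the 74 members, 2 were higher (lgc-12 and lgc-39), 2 were lower (glc-1 and lgc-32) and 70 did not pass limma's test at an adjusted p under 0.05. Over all 15129 genes tested 11.4% were higher and 11.9% lower, 23.3% in either direction. The members' median log2 ratio was 0.03, with quartiles of -0.17 and 0.26, beside a median of -0.0027 and quartiles of -0.36 and 0.37 over all genes. Only lgc-12 and glc-1, 2 of 74 (2.7%), had a mean over 1 log2 unit from 0, which 13.9% of all genes had. An unadjusted p under 0.05 was found for 18 members (24.3%) and for 35.6% of all genes. Counts in the groups below are to be set beside the same shares of all genes, 23.3% called and 35.6% with that unadjusted p.

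For most members the interval of the mean was narrow enough to bound the measured ratio. Signal over background was not examined, so the bound is on the measured ratio and not on the difference in RNA itself. The 95% interval of limma lay within 2-fold of the array median in both directions for 55 of the 74 tested members, or 74.3%, and for 60.6% of all genes. All 55 were among the 70 members that did not pass. In the other 15 of these, among them acr-16, acr-2, avr-14, lgc-22 and lgc-30, a difference of 2-fold was not outside the interval.

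**Figure D1:**
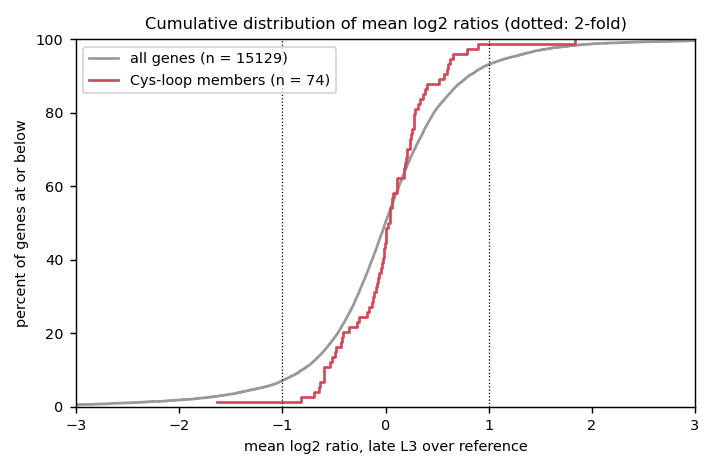
Cumulative share of genes (percent, vertical axis) by mean log2 ratio of late L3 over reference (horizontal axis, shown from -3 to 3) for the 74 Cys-loop members and all 15129 genes, with dotted lines at 2-fold. The members' curve is steeper around 0, and 2 of the 74 lie outside the dotted lines.

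The levamisole receptor is the acetylcholine-gated cation channel of body wall muscle that drives contraction, and its subunits were found through mutants that resist the drug levamisole. The means of its 4 measured subunits were all close to the array median. The alpha subunit gene unc-38 (chromosome I) was at -0.26, 0.40 and -0.06 in preps 1, 2 and 3, and the alpha subunit gene lev-8 (X) at -0.50, 0.30 and 0.22. The non-alpha subunit gene unc-29 (I) was at 0.24, -0.12 and -0.10, and lev-1 (IV) at -0.17, 0.04 and 0.26. Each had values on both sides of 0, and 0 had an unadjusted p under 0.05 (limma). Their means ran from 0.0053 to 0.04 with SDs from 0.20 to 0.44 (n = 3), and their 95% intervals all lay between -0.52 and 0.53.

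The second acetylcholine receptor of body wall muscle, which responds to nicotine and not to levamisole, is built from acr-16 (V). It was at 0.72, 0.84 and 0.32, above 0 in each prep, with a mean of 0.62 ± 0.28 (SD, n = 3), 1.54-fold. Its adjusted p of 0.0637 (limma) missed the threshold. It passed in 1 of the 14 alternatives, quantile normalization (adjusted p = 0.0399), and its mean was 0.24 (adjusted p = 0.395) after removal of the trend along the probe identifiers, a running median on each array that was added after seeing the data. The gene eat-2 (II), whose product sits in pharyngeal muscle and is needed for fast pumping, was at 0.03, -0.32 and 0.10, on both sides of 0.

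Muscle markers are given here beside the muscle receptor genes. Of 11 body wall muscle markers tested, 9 were higher and 0 lower, with list medians of 1.62, 2.16 and 0.72 in preps 1, 2 and 3, from 0.27 for hlh-1 to 2.76 ± 1.12 for the myosin gene myo-3. The 4 levamisole receptor subunits had medians of -0.22, 0.17 and 0.08. In each prep the marker median lay above the highest of the 4 subunits, which was 0.24, 0.40 and 0.26, while the lowest marker was at 0.40, 0.33 and 0.06. Of 8 pharyngeal muscle markers 3 were higher and 1 was lower, with medians of 0.39, 0.46 and 0.42, beside a mean of -0.06 ± 0.23 for eat-2. No test of these differences between lists was made.

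In cholinergic motor neurons, acr-2, acr-3 and acr-12 encode subunits of a further receptor, and a gain-of-function mutation in acr-2 causes convulsions. The gene acr-2 (X) was at 0.70, 1.05 and 0.08, above 0 in every prep, with a mean of 0.61 ± 0.49 (n = 3; adjusted p = 0.0975, limma). Its neighbour acr-3, transcribed with it in an operon, was at 1.22, -0.41 and 0.03. The alpha subunit gene acr-12 (X) was at -0.27, 1.20 and -0.31. None of the 3 passed the threshold, and 1 had an unadjusted p under 0.05 (limma). High values fell in different preps, prep 1 for acr-3 and prep 2 for acr-12, and the SDs of these 2 genes, 0.84 and 0.86, were above the median SD of 0.33 over the members.

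The DEG-3 group of nicotinic-type subunits takes its name from a gene whose gain-of-function mutation makes neurons degenerate. Of its 7 measured genes 0 passed, and 2 had an unadjusted p under 0.05 (limma). DEG-3 and DES-2 assemble into a channel that choline activates well, and their genes neighbour each other on chromosome V. The values of deg-3 were 0.03, 0.27 and 0.05, and those of des-2 were -0.62, 0.29 and 0.06. The genes acr-17 (V) and acr-20 (II) were below 0 in each prep, acr-17 at -0.91, -0.55 and -0.33 and acr-20 at -0.70, -0.72 and -0.37. Both had a mean of -0.60 and neither passed, with adjusted p-values of 0.0761 and 0.0676 (limma). With quantile normalization acr-20 passed (adjusted p = 0.0458), its 1 call in the 14 alternatives, and after removal of the identifier trend its mean was -0.37 (0.18). The betaine receptor and monepantel target acr-23 (V) was at 0.55, -0.07 and 0.07, acr-5 (III) at 0.04, 0.39 and -0.10 and acr-18 (V) at 0.14, 0.84 and -0.38.

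The 2 members with 2 probes each are both in this group. For acr-5 the probe means were 0.13 and 0.09, but in prep 1 the probes read 0.43 and -0.36. For des-2 they were -0.34 and 0.16, with -1.12 and -0.12 in prep 1. Readings of acr-5 and des-2 thus differed between probes by 0.79 and 1.00 log2 units in prep 1, the widest gaps. They differed by 0.51 and 0.68 in prep 2 and by 0.16 and 0.17 in prep 3. Over preps the probe means differed by 0.04 and 0.51.

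Among the 9 other acr subunits measured 0 passed and 1 had an unadjusted p under 0.05 (limma), and means ran from -0.54 ± 0.41 for acr-14 (II) to 0.21 ± 0.23 for acr-21 (III), with a list median of -0.07. The values of acr-14 were -0.98, -0.46 and -0.17, below 0 in each prep, and those of acr-11 (I) were -0.12, -0.89 and -0.26, also below 0 in each. The gene acr-8 (X), whose relative forms part of a levamisole receptor in the parasite Haemonchus contortus, was at -0.61, -0.66 and 0.19. Means of acr-6, acr-7, acr-9, acr-15 and acr-19 lay between -0.12 and 0.06, each with values on both sides of 0. Over all 18 measured genes named acr, 0 passed the threshold, beside 23.3% of all genes. An unadjusted p under 0.05 (limma) was found for 5 (27.8%), beside 35.6% of all genes, and the median was 0.02.

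**Figure D2:**
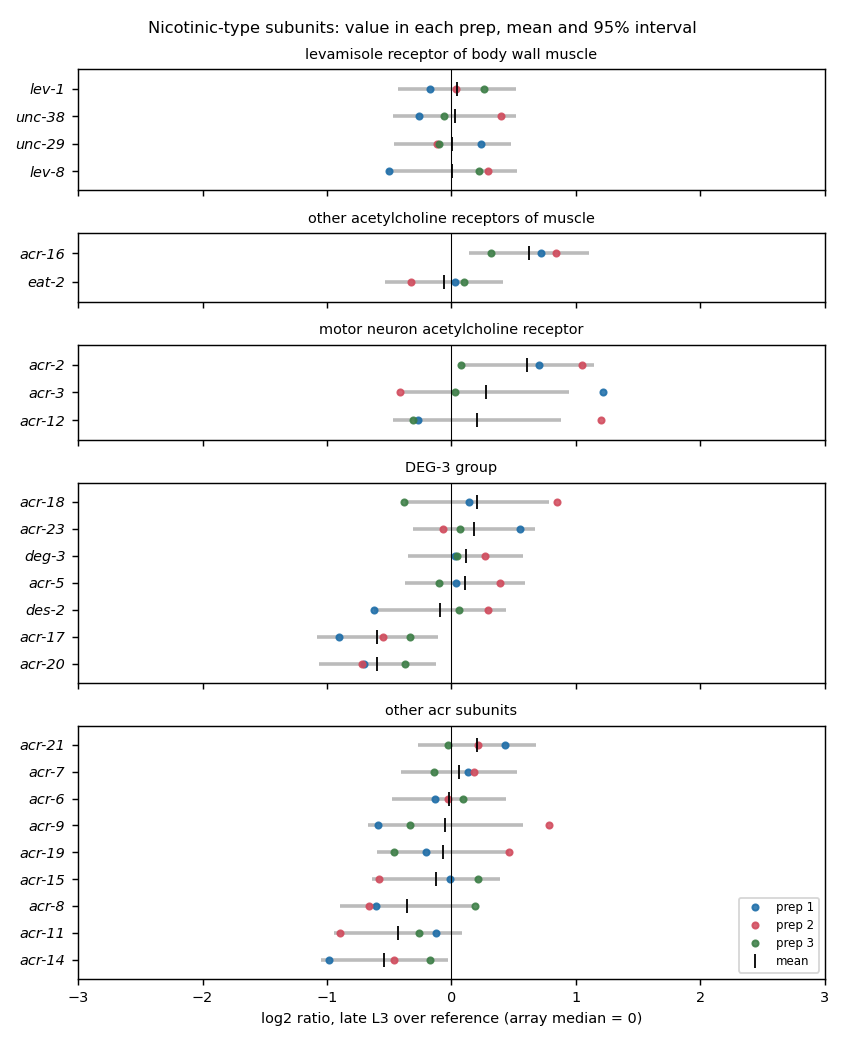
Log2 ratio of late L3 over reference (horizontal axis, array median at 0) for 25 nicotinic-type subunit genes grouped by receptor, with a dot for each prep, a black tick for the mean and a grey bar for the 95% interval of limma. The 4 levamisole receptor subunits straddle 0, and acr-16 and acr-2 lie above it in all preps without passing the threshold.

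GABA relaxes body wall muscle through the chloride channel encoded by unc-49 (III), which yields its subunits by alternative splicing. It was at 0.11, 0.58 and 0.52, above 0 in each prep, with a mean of 0.40 ± 0.26 (n = 3; adjusted p = 0.210, limma). The GABA-gated cation channel gene exp-1 (II), needed for contraction of the enteric muscles in defecation, was at -0.18, 0.20 and -0.26. The GABA receptor subunit genes lgc-37 and lgc-38 (both III) were at -0.32, -0.16 and 0.01 and at -0.18, -0.22 and -0.43. None of the 4 passed and 0 had an unadjusted p under 0.05 (limma), and their 95% intervals together ran from -0.74 to 0.88, within 2-fold.

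Glutamate-gated chloride channels, found only in invertebrates, are the main targets of ivermectin and related avermectins. Of the 6 genes, glc-1 (V) stood apart. This alpha subunit gene, mutated together with avr-14 and avr-15 in strongly ivermectin-resistant worms, was at -2.0, -1.45 and -1.46 in preps 1, 2 and 3, far below 0 in each. Its mean of -1.64 ± 0.31 (SD, n = 3), 3.11-fold lower in the larvae, had a 95% interval from -2.13 to -1.15 and an adjusted p of 0.000572 (limma). It was the lowest member of the family and ranked 421 from the bottom of all 15129 genes. Under the alternatives with shared spread its adjusted p was at most 0.00878. A one-sample test without spread shared between genes gave 0.176.

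The other 5 glutamate-gated channel genes did not pass. The values of avr-14 (I) were -1.14, -0.32 and -0.02, below 0 in each prep, with prep 1 the lowest. The gene avr-15 (V), whose channel relaxes pharyngeal muscle, was at -0.38, 1.19 and -0.06, and thus on the other side of 0 in prep 2. The beta subunit gene glc-2 (I) was at -0.14, 0.17 and -0.02, glc-3 (V) at -0.15, 0.67 and 0.06, and glc-4 (II) at -0.03, 0.22 and -0.21. In each prep glc-1 lay below the other 5, by 0.86 and 1.13 against the next lowest, avr-14, in preps 1 and 2 and by 1.25 against glc-4 in prep 3. These gaps were not tested.

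The genes listed here as amine-gated channels had means from -0.42 to 0.18. The list may not hold every such channel of the family, and others may be among the lgc genes given below. Of 6 measured genes 0 passed, 0 had an unadjusted p under 0.05 (limma), and all 95% intervals lay between -0.93 and 0.79. The serotonin-gated cation channel gene lgc-50 (III) was at -0.38, 0.69 and -0.17. The gene lgc-55 (V), for the tyramine-gated chloride channel that stops head movements during escape, was at 0.13, 0.04 and -0.04, the smallest SD among the 74 members (0.09). The dopamine-gated channel gene lgc-53 (X) was at 0.51, -0.25 and -0.05, and lgc-40 (X), gated by serotonin and choline, at 0.27, -0.32 and 0.23. Of the remaining genes, lgc-54 (V) was at 0.03, 0.95 and -0.45 and lgc-51 (I) at -0.82, -0.39 and -0.06.

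In the group of acetylcholine-gated chloride channels, 3 genes were measured and 0 passed, with 1 unadjusted p under 0.05 (limma). That gene, lgc-47 (X), was at -1.13, -0.65 and -0.12, below 0 in each prep. Its mean was -0.63 ± 0.50 (adjusted p = 0.0891). The values of lgc-48 (V) were 0.29, -0.09 and 0.13, and those of lgc-49 (V) were -0.30, 0.16 and -0.26.

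The 30 other lgc genes, for most of which no ligand or role is stated here, held 3 of the 4 calls, 2 higher and 1 lower. These were 6.67% and 3.33% of the group, beside 11.4% and 11.9% of all genes. This largest group also had the widest range of means, but the SD of its means was 0.57, against 0.71 for the 6 glutamate-gated genes. The highest member of the family was lgc-12 (III), at 2.33, 1.26 and 1.94, far above 0 in each prep. Its mean of 1.84 ± 0.54 (SD, n = 3), 3.58-fold, had a 95% interval from 1.29 to 2.39 and an adjusted p of 0.000572 (limma), and it ranked 243 from the top of all genes. Under the alternatives with shared spread its adjusted p was at most 0.00781, and without it 0.195.

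The second call, lgc-39 (V), was at 0.85, 1.18 and 0.36, above 0 in each prep, with a mean of 0.79 ± 0.41 (n = 3), 1.73-fold (adjusted p = 0.0323, limma). The lower call, lgc-32 (X), was at -1.42, -0.65 and -0.40, below 0 in each prep, with a mean of -0.82 ± 0.53, 1.77-fold lower (adjusted p = 0.0370). Prep 1 was the furthest from 0 for lgc-32 and prep 2 for lgc-39. Both calls ended without prep 1 (adjusted p = 0.0602 for lgc-39 and 0.251 for lgc-32) and without prep 2 (0.172 and 0.108). The mean of lgc-32 was -0.52 without prep 1. After removal of the identifier trend lgc-39 was at 0.44 (adjusted p = 0.155) and lgc-32 at -0.59 (0.0614), and both calls ended.

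Other lgc genes came near the threshold without passing it. The gene lgc-22 (IV) was at -0.18 in prep 1 against 1.16 and 1.72 in preps 2 and 3, and its mean of 0.90 ± 0.98 did not pass (adjusted p = 0.0742, limma). It passed in 1 of the 14 alternatives. Without prep 1 its mean was 1.44 (adjusted p = 5.06e-05), without prep 2 it was 0.77 (0.309) and without prep 3 it was 0.49 (0.358). The gene lgc-34 (II) was at 0.47, 1.07 and 0.42 (adjusted p = 0.0621), and lgc-13 (X) at -0.55, -1.03 and -0.36 (0.0623), each on 1 side of 0 in all preps. The gene lgc-57 (II) was at -0.39, -0.62 and -0.78 (0.0674). These 3 passed with quantile normalization, with adjusted p-values of 0.0375, 0.0382 and 0.0492. They passed in 2, 1 and 2 of the 14 alternatives. After removal of the identifier trend lgc-34 was at 0.94 (adjusted p = 0.0195), lgc-13 at -0.36 (0.211) and lgc-57 at -0.38 (0.213). The values of lgc-11 (X), 0.87, 0.92 and 0.00, passed only without prep 3 (0.0486). Those of lgc-30 (IV) were -1.95, 0.13 and -0.28, the largest spread over preps in the family (2.08 log2 units). In all, 11 of the 30 were above 0 in each prep, 6 below, and 13 (43.3%) mixed. Over all genes 26.8% were above, 29.2% below and 44% mixed.

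**Figure D3:**
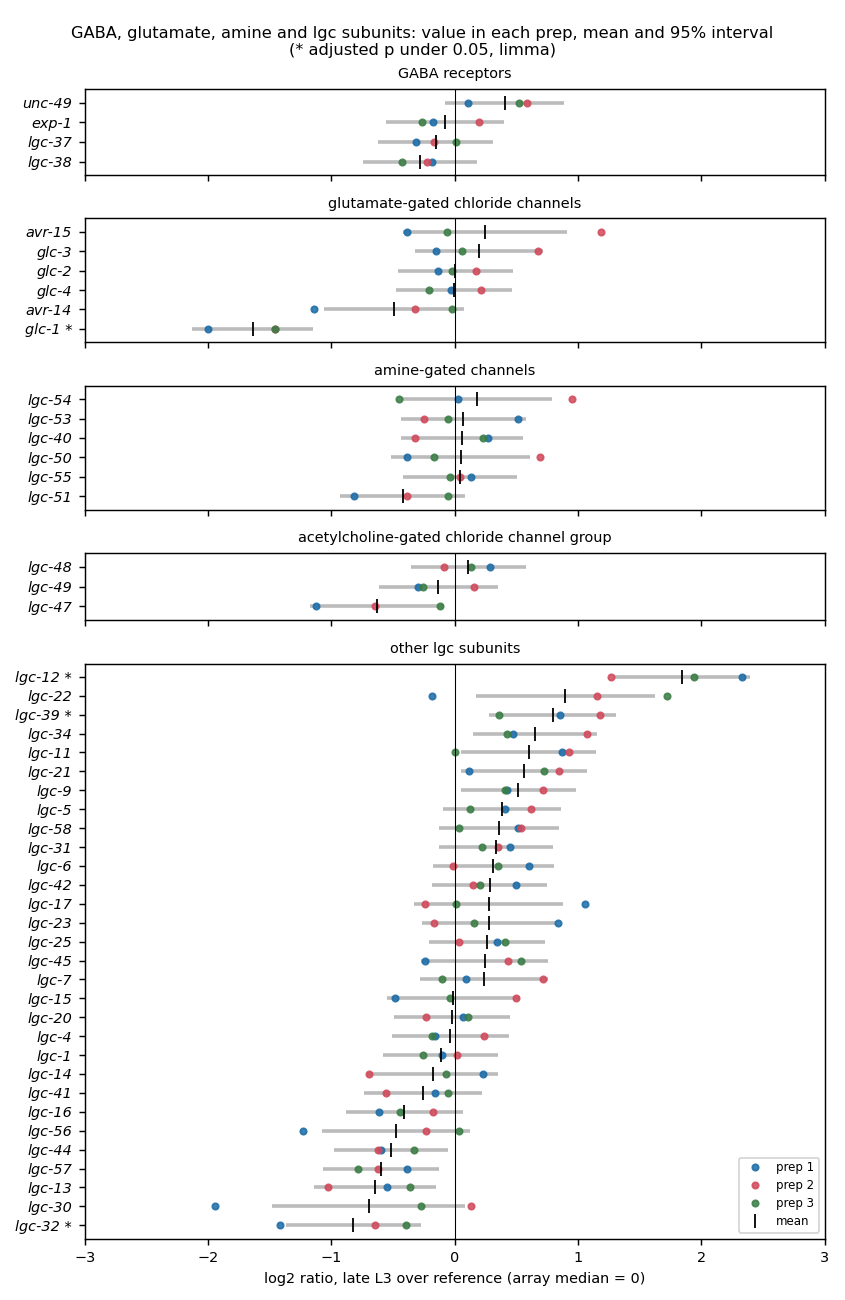
Log2 ratio of late L3 over reference (horizontal axis, array median at 0) for the GABA, glutamate, amine and acetylcholine-gated chloride channel genes and 30 other lgc genes, with a dot for each prep, a black tick for the mean and a grey bar for the 95% interval of limma. Stars mark adjusted p under 0.05, and lgc-12 and glc-1 are the 2 genes whose intervals lie wholly beyond 2-fold.

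**Figure D4:**
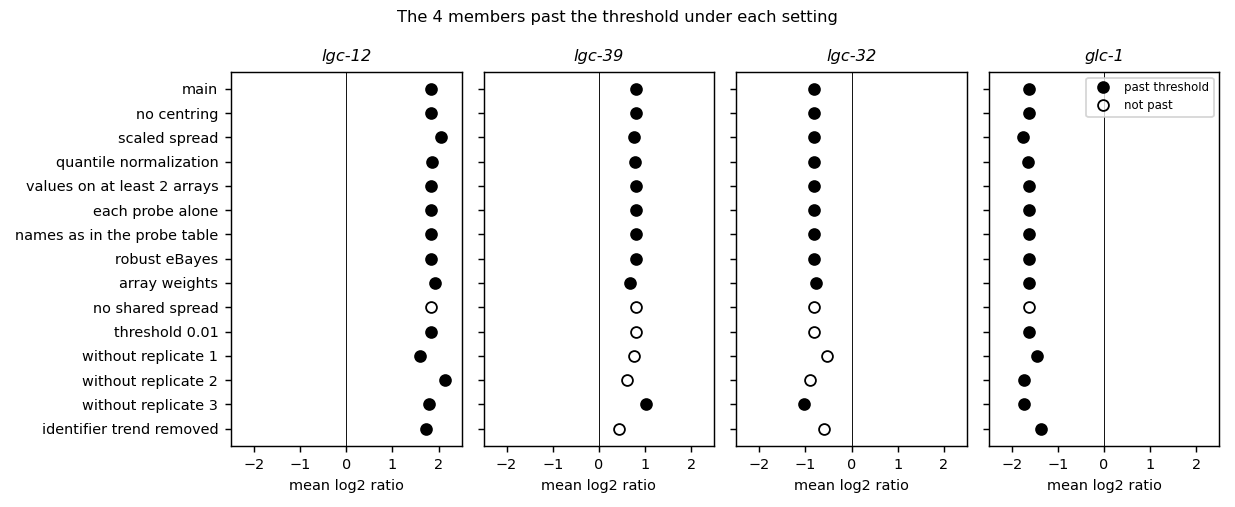
Mean log2 ratio (horizontal axis) of the 4 members past the threshold under the main setting and 14 alternatives (vertical axis), filled where the call held. For lgc-12 and glc-1 the call held in 13 of 14, and for lgc-39 and lgc-32 in 9 of 14. Of these alternatives, probe-table names, each probe alone and values on at least 2 arrays could not change the means of these 1-probe genes.

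The agreement between preps is described next. Pearson's r between preps over the 74 members was 0.44 (preps 1 and 2), 0.56 (1 and 3) and 0.48 (2 and 3), against 0.71, 0.72 and 0.78 over the 15129 genes. These describe genes measured on the same arrays against 1 reference, and genes are not independent replicates. The median absolute difference between preps was 0.47, 0.31 and 0.37 for the members and 0.44, 0.35 and 0.41 for all genes. The SD of the means was 0.47 over the members and 0.78 over all genes. Signs were mixed over the preps for 44 of the 74 (59.5%), beside 44% of all genes. Of the rest, 15 members were above 0 in every prep and 15 below, against 26.8% and 29.2% of all genes. Family medians were -0.11, 0.14 and -0.03 in preps 1, 2 and 3.

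Several members neighbour each other in the genome. In 9 pairs both genes were measured and had at most 2 genes between them. The adjacent pair lgc-5 and lgc-6 on chromosome IV had means of 0.39 and 0.31, and lgc-5 was above 0 in each prep. On chromosome V, acr-16 was above its neighbour acr-15 in each prep, by 0.73, 1.42 and 0.10, with means of 0.62 and -0.12. On the X chromosome, in the run lgc-13 to lgc-17, means were -0.65, -0.18, -0.01, -0.41 and 0.28, in gene order. The X chromosome held 22 of the 74 members, with 0 higher and 1 lower and a median of 0.03, and the autosomes 52, with 2 higher and 1 lower and a median of 0.03. Of all 2277 genes tested on X, 14.6% were higher and 9.75% lower. Of all 12852 on autosomes, 10.8% were higher and 12.3% lower. No difference between X and autosomes was tested for the members.

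Proteins that build, place or regulate these receptors are given as a companion list. Of 14 genes listed for assembly, clustering and regulation of acetylcholine receptors, 9 were tested, 1 was higher and 0 were lower, with a median of 0.16. The higher gene, nra-4, encodes a protein of the endoplasmic reticulum that acts with NRA-2 on which subunits reach the surface. It was at 0.96, 1.58 and 1.67, with a mean of 1.40 ± 0.39 (adjusted p = 0.00171, limma), while nra-2 was at -0.54, 0.42 and 1.06. The chaperone gene ric-3 was at -0.57, -0.67 and 0.30, and the auxiliary subunit gene molo-1 at -1.18, 0.18 and -0.28. Of 6 genes for GABA receptor clustering, among them the neuroligin gene nlg-1 at 0.50 ± 0.35, 0 passed in limma, 1 had an unadjusted p under 0.05, and the median was 0.27. A further list held transmitter synthesis, transport and breakdown, with 18 genes tested and a median of -0.04. There 1 (5.56%) was higher and 3 (16.7%) were lower in limma, beside 11.4% and 11.9% of all genes. The higher gene was bas-1 (0.81 ± 0.32). The lower genes were unc-25 (-0.86 ± 0.73), tdc-1 (-2.82 ± 0.60) and tbh-1 (-3.20 ± 0.49).

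Other ion channel families are given by their counts. Related Cys-loop genes outside the rule, such as acc-1 to acc-4, had 0 of 6 past the threshold and 0 with an unadjusted p under 0.05 (limma), with a median of -0.21 and a range from -0.30 to 0.03. Of 13 ionotropic glutamate receptor and partner genes 0 passed and 2 had an unadjusted p under 0.05, with a median of -0.10. Of 29 DEG/ENaC sodium channel genes, 1 was higher, the muscle channel gene unc-105 at 0.78 ± 0.04, and 1 lower, acd-2 at -1.44 ± 0.59, with a median of -0.05. Pan-neuronal markers had 2 of 13 lower and 0 higher. These were snt-1 at -0.83 ± 0.32 and rgef-1 at -0.67 ± 0.24, and the list medians were -0.40, -0.12 and -0.14 in preps 1, 2 and 3. The families were not tested against each other, and the part of nerve or muscle RNA in the values of the channel genes was not tested.

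**Figure D5:**
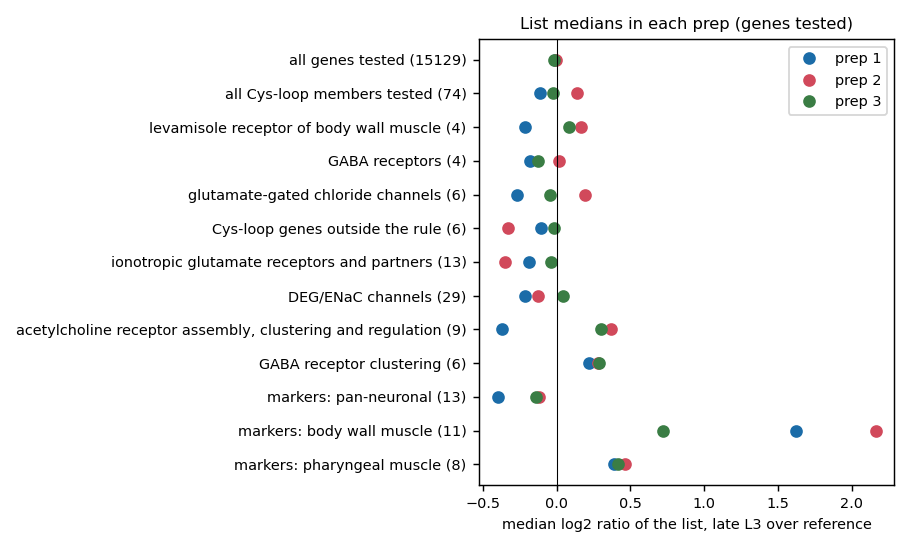
Median log2 ratio of each gene list (horizontal axis) in preps 1, 2 and 3 (dots), with the number of genes tested in brackets. The Cys-loop members, other channel families and neuronal markers lie within 0.40 of 0, and body wall muscle markers lie between 0.72 and 2.16.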

How the data were processed

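The 3 arrays were analysed through the deposited log2 ratios of the value table. No source used here states how the authors normalized these log2 ratios or filtered spots. That the log base is 2 follows from the deposited values, since 100% of ratios under 0.3, taken out of log2, are multiples of a thousandth (tolerance 0.01 thousandths). Spot intensities were not used, so signal over background was not examined. Probes were named through the probe table (20000 probes, 15655 with 1 gene, 198 with several, 4147 with none), and names were updated through RefSeq WBcel235, matching 15569 on gene ID, 7 on accession and leaving 79 as they were. Its gene order gave neighbours, and no coordinates are printed since the probes' build is not given.

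Arrays were centred on their median and probes of a gene averaged. The test, for genes measured on all 3 arrays, was limma's (version 3.58.1, R 4.3.3): an intercept in lmFit, then eBayes, with the mean set against 0, 2-sided, and Benjamini-Hochberg adjustment over 15129 genes at 0.05. The spread of the reference is left out. Its prior SD was 0.397, on 7.92 degrees of freedom. In simulated data with 200 changed genes the test recovered 30% of changes of 1 log2 unit and 98% of 2. The share changed there was far below the 23.3% of genes called in the data. The adjusted threshold was thus stricter in the simulation, and these percentages do not give the recovery in the data. Figures used matplotlib 3.10.9. The members and lists were chosen with earlier results of these data known. Every member may be named, and those past the threshold or in a named receptor class are given by prep. Alternatives were 13 planned settings and 1 chosen after seeing the data, a running median over 201 probes in identifier order subtracted from each array.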

Additional observations from a re-analysis of the deposited data

How the results depend on the processing

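The members' median stayed between -0.04 and 0.09 under all alternatives run. The counts of 2 higher and 2 lower members became 4 and 5 with quantile normalization, 4 and 1 after the identifier trend was removed (chosen after seeing the data), 1 and 1 at a threshold of 0.01, and 0 and 0 with a test of each gene on its own spread alone, where 7 members and 3271 genes had an unadjusted p under 0.05, against 18 and 5383 in limma. Leaving out each prep gave 1 to 3 higher and 1 to 2 lower members. Over all genes, 1718 higher and 1805 lower became 890 and 1004 at 0.01 and 0 and 0 with each gene's own spread, and leaving out each prep gave 776 to 1748 higher and 1019 to 1541 lower. The lowest counts, 776 and 1019, were without prep 2. After the identifier trend was removed, lgc-34 (adjusted p = 0.0195), lgc-21 (0.0357) and lgc-9 (0.0452) passed, and lgc-39 (0.155) and lgc-32 (0.0614) did not. With array weights lgc-57 passed (0.0492). The causes were not tested. No called member changed sign, while 36 members, with means within 0.28 of 0, did so in at least 1 of the 14 alternatives. Each ratio sets a prep against the reference on the same array, and with 1 group in the series no other pairing was possible.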
